A study of Mus musculus with 8 samples.

Results

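SL-Cux2 is the superficial-layer excitatory neuron subtype that the authors named after Cux2 in the adult mouse prefrontal cortex (PFC). Its members were taken from the deposited cell annotation, in which 626 cells carry this name, 22.6% of the 2775 annotated excitatory neurons and 6.96% of the 8997 annotated PFC cells, within a series of 23687 annotated cells. The study asked how loss of 1 copy of Setd1a alters gene expression in individual cell types of the brain. The PFC was sampled in 4 single-cell libraries, 2 from WT and 2 from Setd1a+/- littermates, all male C57BL/6N mice with a labelled age of 8 to 10 weeks, although the study's methods give an older age for the dissociated mice. Setd1a+/- mice carried a CRISPR-Cas9 frameshift in exon 15, upstream of the SET domain, and founders had been backcrossed to C57BL/6N. Tissue of 2 mice was pooled for each library, so p-values refer to pools and not to single animals. Counts are unique molecular identifiers (UMIs), which count each captured RNA molecule once, and levels are given in CPM, the UMIs of a gene scaled to the same total in every library, summed over its SL-Cux2 cells. Where 4 values are listed they belong to WT replicate 1, WT replicate 2, Setd1a+/- replicate 1 and Setd1a+/- replicate 2, in this order.

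Excitatory neurons of the cortex release glutamate and are stacked in layers with different targets. Superficial-layer cells mainly connect cortical areas with each other, and deep-layer cells also project to the thalamus, brainstem and striatum. Cux2 is a homeodomain transcription factor of upper-layer neurons that shapes their dendrites and synapses, and Rorb is a nuclear receptor best known from layer 4. Setd1a is a histone H3 lysine 4 methyltransferase, and loss-of-function variants in its gene are linked to schizophrenia.

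The promoter windows of 3 genes are shown because Cux2 names the subtype, Tnnc1 led the genes higher in it, and Cartpt had the lowest p between genotypes. They come from RefSeq (GRCm38.p6), run 5′ to 3′ from 250 bases before to 50 bases after a transcription start, and lie at chr5:122047776-122048075 on the minus strand (Cux2, 1 of 2 annotated windows, shown because it holds a match), chr14:31208062-31208361 on the plus strand (Tnnc1) and chr13:99900634-99900933 on the minus strand (Cartpt). Capitals mark matches, on either strand, to CAGATG, an E-box bound by neuronal bHLH factors such as Neurod1, or to TGACGTCA, the cAMP response element.
Cux2: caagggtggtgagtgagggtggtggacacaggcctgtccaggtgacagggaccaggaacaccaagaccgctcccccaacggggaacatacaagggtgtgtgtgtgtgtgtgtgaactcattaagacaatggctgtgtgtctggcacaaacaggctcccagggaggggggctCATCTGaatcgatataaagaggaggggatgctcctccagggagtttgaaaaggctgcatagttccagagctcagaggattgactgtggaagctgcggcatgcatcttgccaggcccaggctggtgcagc
Tnnc1: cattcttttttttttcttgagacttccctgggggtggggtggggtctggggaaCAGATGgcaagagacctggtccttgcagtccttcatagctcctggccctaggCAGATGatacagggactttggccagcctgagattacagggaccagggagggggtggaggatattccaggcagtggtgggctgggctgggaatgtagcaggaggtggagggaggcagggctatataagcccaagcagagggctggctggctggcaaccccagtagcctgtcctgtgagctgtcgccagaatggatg
Cartpt: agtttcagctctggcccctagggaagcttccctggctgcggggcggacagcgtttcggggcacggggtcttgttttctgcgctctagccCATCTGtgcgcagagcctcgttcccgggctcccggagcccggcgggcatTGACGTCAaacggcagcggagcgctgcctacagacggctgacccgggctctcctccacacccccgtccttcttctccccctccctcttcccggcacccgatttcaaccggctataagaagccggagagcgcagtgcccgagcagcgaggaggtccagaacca
The Cux2 window held 1 match to CAGATG, the Tnnc1 window held 2, and the Cartpt window held 1 match to CAGATG and 1 to TGACGTCA. Both motifs were searched on both strands together with TAGGTCA, the core of the ROR response element, and the MEF2 core, whose last letters can overlap the first of TAGGTCA. The other Cux2 window and the 2 Rorb windows, which are not shown, held no match to any of these. Among all 32851 mouse windows, 17.2% held CAGATG, 1.79% held TGACGTCA, 2.61% held TAGGTCA and 3.69% held the MEF2 core. A window was found for 31 of the 38 genes that the comparison with other subtypes below called high in SL-Cux2, and of their 41 windows 22.0% held CAGATG, 2.44% held TGACGTCA, 0 held TAGGTCA and 7.32% held the MEF2 core. Of the 69 genes called low, 54 had a window. Of their 81 windows 8.64% held CAGATG, 1.23% held TGACGTCA, 1.23% held TAGGTCA and 3.7% held the MEF2 core. Among the 6993 windows of all genes in that comparison, 10.8% held CAGATG, 3.7% held TGACGTCA, 1.52% held TAGGTCA and 2.8% held the MEF2 core. A match describes the letters of a window and is not a measured binding site.

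The libraries contributed 66, 287, 140 and 133 SL-Cux2 cells with 598156, 1559755, 978693 and 808466 UMIs. Their median cells held 9863.5, 5260, 6999.5 and 4662 UMIs, 3649, 2379, 2934 and 2209 detected genes and 3.54%, 4.46%, 4.603% and 4.18% mitochondrial UMIs. Depth, gene number and mitochondrial share overlapped between genotypes (two-sided exact permutation test, p = 0.667 for each, where 2 against 2 libraries cannot go below 0.33). That test leaves out the pairing of same-numbered libraries. Within both pairs the median UMIs and detected genes were lower in Setd1a+/-, while the mitochondrial share was higher in replicate 1 and lower in replicate 2. The libraries shared no barcode of an SL-Cux2 cell. The replicates stood apart for a small set of genes: in both genotypes, 24 genes were at least 4-fold higher in replicate 2, among them Mt3 at 1.67, 830, 1.02 and 747 CPM and Gapdh at 119, 934, 60.3 and 1087 CPM, and 6 genes were at least 4-fold higher in replicate 1. The defining markers of other cell types were low in SL-Cux2 cells, with Gad1 at 0 to 22.5 CPM, Aqp4 at 0 to 1.24 CPM, Cldn5 at 0 to 2.04 CPM and Pdgfra at 0.641 to 3.07 CPM. The oligodendrocyte transcript Mbp was present throughout, between 33.4 and 72.5 CPM.

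Cux2 marked superficial neurons as a whole and was not highest in SL-Cux2. The gene (chr5:121856366-122050102, minus strand, GRCm38) measured 114, 66.0, 150 and 122 CPM in SL-Cux2 cells and 145, 112, 166 and 162 CPM in SL-Myh7, the other superficial subtype, so SL-Myh7 lay above SL-Cux2 within every library. Pooled over libraries, Cux2 was at 17.3 CPM in DL-Etv1, 11.3 CPM in DL-Nnat, 0.654 CPM in DL-Foxp2, 0.720 CPM in DL-Tshz2 and 0 in DL-Pou3f1. Inhibitory neurons, another class that uses Cux2, held 49.9 CPM. With every cell thinned to 2000 UMIs, 15.4% of 553 SL-Cux2 cells, 26.8% of 190 SL-Myh7 cells and 1.93% of 935 oligodendrocytes held a Cux2 UMI, and 0 of 691 DL-Foxp2 cells did, which allows a share of up to 0.434%. Without thinning the shares were 33.9%, 49.5%, 2.89% and 0.404%, at median depths of 6304.5, 6228, 2056 and 6299 UMIs. The label is that of a superficial subtype, and its gene did not separate SL-Cux2 from SL-Myh7.

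Rorb separated the superficial subtypes. It measured 385, 233, 221 and 280 CPM in SL-Cux2 cells and 51.8, 12.5, 21.6 and 5.80 CPM in SL-Myh7 cells, with no overlap between the subtypes. Other genes of the superficial-layer list went either way. Pooled levels in SL-Cux2 and SL-Myh7 were 4355 against 3256 CPM for Mef2c, 53.7 against 28.8 CPM for Pou3f2, a POU-domain factor of upper-layer neurons, and close for Cux1 (27.1 against 25.8 CPM) and Unc5d, a netrin receptor (66.9 against 60.5 CPM). Calb1, a calcium-buffering protein, measured 105, 55.8, 132 and 109 CPM in SL-Cux2 against 461, 337, 675 and 419 CPM in SL-Myh7. Pooled levels of Rasgrf2, a Ras exchange factor, were 58.8 against 186 CPM, those of Lamp5, a membrane protein of upper-layer and some inhibitory neurons, 121 against 372 CPM, and those of Wfs1, an endoplasmic reticulum protein, 18.8 against 151 CPM. Rorb was also present in DL-Etv1 at 112 CPM, in DL-Nnat at 107 CPM and, outside neurons, in astrocytes at 425 CPM. After thinning, 34.0% of SL-Cux2 cells held a Rorb UMI, against 3.16% of SL-Myh7 cells, 17.1% of DL-Etv1 cells and 0.963% of oligodendrocytes (62.0%, 9.79%, 53.0% and 1.00% without thinning).

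**Figure D1:**
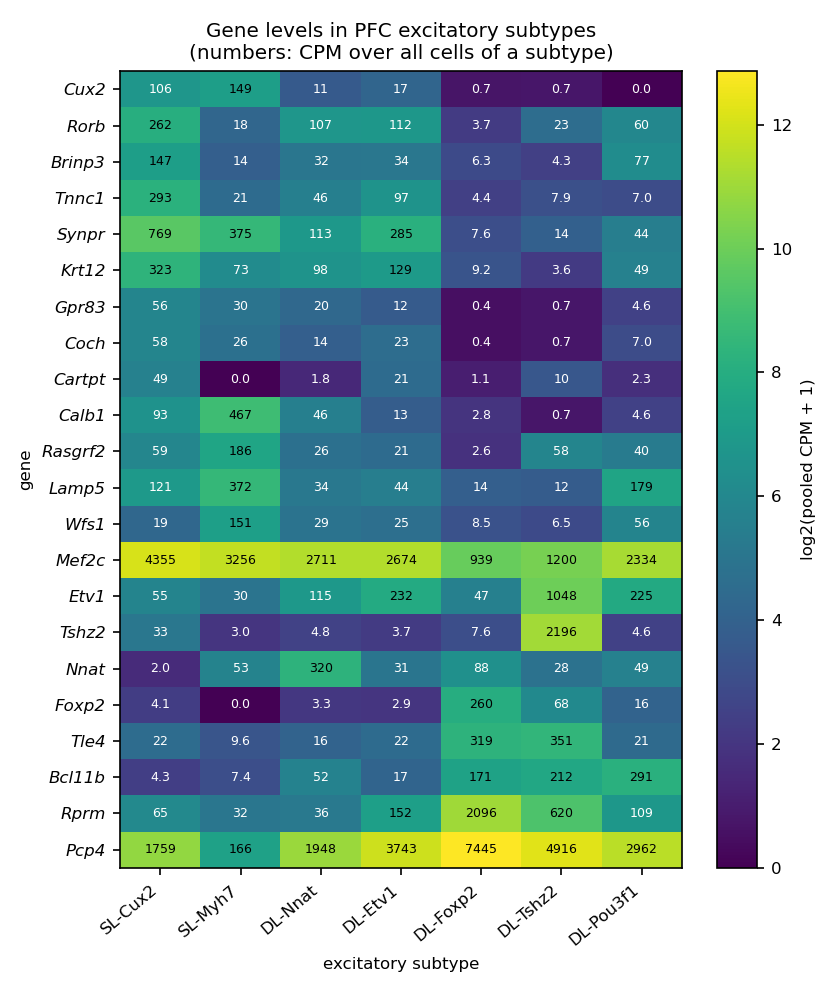
Levels of 22 genes (rows) in the 7 excitatory subtypes (columns), as CPM over all cells of a subtype (printed numbers), with color on a log2 scale of CPM + 1. Cux2 is highest in SL-Myh7 (149 CPM) and next in SL-Cux2 (106 CPM), Rorb is highest in SL-Cux2 (262 CPM), and the deep-layer genes Foxp2, Tle4, Bcl11b and Rprm lie mainly in the deep-layer columns.

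SL-Cux2 was compared with the sum of all other excitatory neurons of the same library as the log2 ratio of CPM + 5, a scale that understates the change of low genes. Because the cells were clustered on these genes, the comparison is a description with no test. Of 6748 genes with at least 20 CPM in either sum, 38 (0.563%) were called high, that is, at least 2-fold higher in all 4 libraries, and 69 (1.02%) were called low by the same rule. Of the 38 high genes, 32 had their highest pooled level in SL-Cux2 and the other 6 in SL-Myh7. Of the 69 low genes, 31 were highest in DL-Foxp2, 23 in DL-Tshz2, 6 in DL-Nnat, 6 in DL-Pou3f1, 2 in DL-Etv1 and 1 in SL-Myh7. Across 7876 genes, pooled log2 levels of SL-Cux2 were most alike those of DL-Etv1 (Pearson r = 0.967) and DL-Nnat (0.962), then SL-Myh7 (0.944), DL-Pou3f1 (0.908), DL-Foxp2 (0.896) and DL-Tshz2 (0.860), where genes are not independent replicates and the subtypes share libraries. The pools differed in size, with 383 DL-Etv1 cells at a median of 10331 UMIs and 194 SL-Myh7 cells at 6228. The part of counting noise in this order was not tested.

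Tnnc1 led the high genes. The gene (chr14:31208312-31211729, plus strand), which encodes the troponin C of slow muscle and heart, measured 171, 392, 107 and 418 CPM in SL-Cux2 cells and 23.9, 55.9, 13.5 and 65.2 CPM in the other excitatory neurons, a log2 ratio of 2.62 ± 0.05 (SD, n = 4 libraries). Its level was higher in replicate 2 of each genotype in both sets of cells, and the ratio was nearly the same in all 4 libraries. Tcap, a sarcomere protein, measured 85.3, 122, 41.9 and 113 CPM against 5.67, 13.0, 4.87 and 22.1 CPM (2.57 ± 0.46). The troponin T gene Tnnt2 (1.33 ± 0.13) was also called high. Krt12, a keratin, measured 272, 314, 413 and 271 CPM in SL-Cux2 cells and 47.2, 69.0, 78.4 and 71.8 CPM in the others (2.17 ± 0.25).

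Synpr, a synaptic vesicle membrane protein, measured 582, 683, 988 and 809 CPM in SL-Cux2 cells and 82.5, 153, 128 and 196 CPM in the other excitatory neurons (2.44 ± 0.44). Brinp3 (chr1:146494760-146902472, plus strand), a BMP- and retinoic acid-inducible neural protein, measured 167, 134, 113 and 198 CPM against 15.7, 20.5, 17.3 and 37.6 CPM (2.54 ± 0.35). For both genes all 4 SL-Cux2 values lay above all 4 values of the other neurons, and the ratio was lowest in Setd1a+/- replicate 2. Transcription factors among the high genes were Rorb (2.07 ± 0.38), Cux2 (2.13 ± 0.53), Neurod1, a bHLH factor of neuronal differentiation (1.84 ± 0.57), and the zinc-finger factor Tshz1 (1.48 ± 0.31). Membrane and signaling proteins among them included Gpr83, a G protein-coupled receptor (2.01 ± 0.50), Rgs4, which limits G protein signaling (1.35 ± 0.22), the sodium channel family member Scn7a (1.54 ± 0.38), the sodium pump beta subunit Atp1b2 (1.42 ± 0.13), carbonic anhydrase Car4 (1.43 ± 0.05) and Ddit4l, an inhibitor of mTOR signaling (2.15 ± 0.39). Like Cux2, Car4 and Ddit4l were highest in SL-Myh7, at 98.1 and 91.5 CPM against 61.1 and 70.0 CPM in SL-Cux2. Cartpt, which encodes the neuropeptide precursor CART, measured 18.4, 16.7, 62.3 and 116 CPM in SL-Cux2 cells and 4.72, 2.31, 2.97 and 27.6 CPM in the others (1.95 ± 0.79), the widest spread of the 20 leading high genes.

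The low genes were led by Ighm, the immunoglobulin mu heavy chain gene, at 0, 5.13, 0 and 4.95 CPM in SL-Cux2 cells and 94.5, 94.1, 70.8 and 96.1 CPM in the other excitatory neurons (−3.72 ± 0.49), and many were deep-layer genes. Foxp2, a forkhead factor of corticothalamic neurons, measured 6.69, 2.56, 6.13 and 2.47 CPM in SL-Cux2 cells and 90.4, 94.7, 95.7 and 53.8 CPM in the others (−3.23 ± 0.34). Rprm, a cell-cycle gene used as a layer 6 marker, measured 83.6, 57.7, 79.7 and 48.2 CPM against 810, 752, 964 and 346 CPM (−3.26 ± 0.40), and Bcl11b, a zinc-finger factor of subcerebral projection neurons, had a ratio of −3.48 ± 0.50. Of 25 listed deep-layer genes, 18 reached the minimum level and 11 of these were called low (Foxp2, Tle4, Bcl11b, Sox5, Etv1, Tshz2, Nnat, Syt6, Rprm, Hs3st4 and Nr4a2), 0 high, with a median ratio of −1.93 against −0.02 over all 6748 genes. Tbr1 (−1.14 ± 0.11), Fezf2 (−1.06 ± 0.48) and Pcp4 (−1.38 ± 0.32) were lower in all 4 libraries but under 2-fold in at least 1. Of 20 listed superficial-layer genes, 15 reached the minimum and 2 were called high, Cux2 and Rorb, with a median of 0.71. Mef2c, a MADS-box transcription factor of activity-dependent gene expression, measured 4201, 4756, 3590 and 4622 CPM in SL-Cux2 cells (1.07 ± 0.18) and just missed the rule, and Cux1 (0.81 ± 0.23) differed less. These lists were chosen to tell layers apart, and the authors named the subtypes by members of them.

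**Figure D2:**
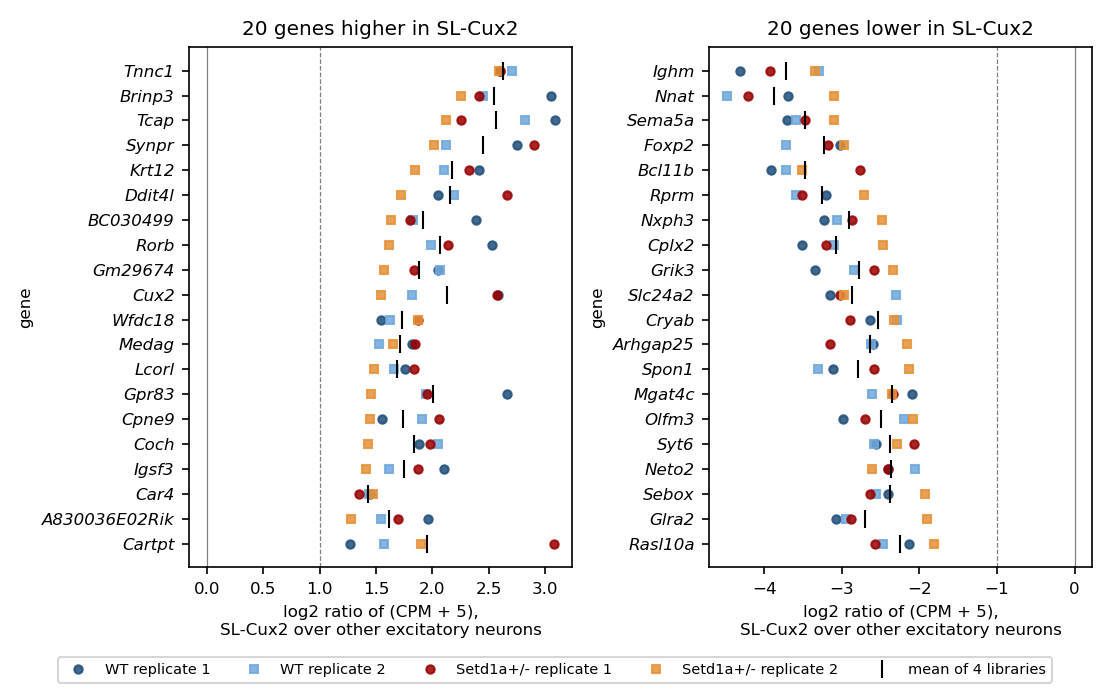
Log2 ratio of CPM + 5 in SL-Cux2 cells over the other excitatory neurons of the same library (horizontal axis) for the 20 leading high genes (left) and the 20 leading low genes (right), with 1 point per library, a black tick at the mean of the 4 libraries and a dashed line at a 2-fold difference. Tnnc1 has the highest lowest-library ratio of the high genes, at 2.59, and Cartpt has a wide spread, from 1.27 to 3.08.

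Calls in the lists of synaptic and guidance genes stand beside a background of 0.563% of all 6748 genes called high and 1.02% called low, and in a short list 1 call is a single gene and no result about the list. Cplx2, a complexin that regulates vesicle fusion, measured 30.1, 48.1, 20.4 and 74.2 CPM in SL-Cux2 cells and 396, 449, 229 and 433 CPM in the other excitatory neurons (−3.07 ± 0.44). Of 42 measured genes of synaptic vesicles and release, Cplx2, its relative Cplx1 (−1.40 ± 0.15) and the vesicle-trafficking GTPase Rab3b (−1.98 ± 0.30) were called low and Synpr high. The SNARE protein gene Snap25 had a ratio of −0.29 ± 0.03. Of 16 ionotropic glutamate receptor genes, only the kainate receptor subunit Grik3 was called, at −2.78 ± 0.43, and the AMPA receptor subunit Gria2 had a ratio of −0.22 ± 0.09. Of 15 ion pumps and exchangers, Slc24a2, a sodium-calcium-potassium exchanger, was called low (−2.87 ± 0.38) and Atp1b2 high. Of 25 axon guidance genes, Sema5a (−3.47 ± 0.26), Nrp1 (−1.99 ± 0.45), Sema3e (−1.60 ± 0.24) and Plxna2 (−1.35 ± 0.22), which encode semaphorins and their receptor components, were called low and 0 high. Of 15 neuropeptide and modulator genes, Npy (−1.81 ± 0.69), Nptx1 (−1.72 ± 0.18), Nptx2 (−1.57 ± 0.09) and the somatostatin receptor Sstr2 (−1.59 ± 0.38) were called low and 0 high. The neuropeptide gene Cartpt, called high above, was not a member of this list.

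Of 15 immediate early genes, 2 were called low, Nr4a2 and Nptx2, and 0 high, and both are also members of lists given above. Several other lists held no call, which at the background of 0.563% high and 1.02% low is no result about them. None of 35 potassium channel, 21 sodium and calcium channel, 12 GABA receptor, 6 metabotropic glutamate receptor, 46 synapse assembly or 14 H3K4 methylation genes was called, and their median ratios lay between −0.12 and 0.31. The sodium and calcium channel list did not hold Scn7a, which was called high above. Of 14 measured genes of glutamatergic identity, 1 was called high, Neurod1, and 0 low, with a median ratio of −0.07. The ratio was 0.08 ± 0.07 for Neurod6, a bHLH factor of pyramidal neurons, and −0.41 ± 0.11 for Slc17a7, the vesicular glutamate transporter, which was lower in SL-Cux2 in all 4 libraries. Sebox, a homeobox gene that led in DL-Foxp2 at 57.6 CPM, had 0 UMIs in SL-Cux2 cells, where 0 of 3945070 UMIs allow up to 0.760 CPM. Without Setd1a+/- replicate 2, whose ratios were smallest for most leading genes, 63 genes were called high. Asking for the difference in 3 libraries instead of 4 loosens the rule, but without any other single library 42 or 43 genes were called. SL-Myh7 cells numbered 23, 52, 56 and 63 of the 410, 1189, 692 and 484 excitatory neurons of the 4 libraries. The part of this mix in the ratios was not tested.

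SL-Cux2 cells varied among themselves in depth and in their markers. Of the 201 cells under 4000 UMIs, 119 came from WT replicate 2. Pooled over libraries they held 469 CPM of Rorb against 234 CPM in the 425 deeper cells, higher in 3 of 4 libraries, whereas WT replicate 1 had 253 against 392 CPM. They held more Brinp3 (276 against 129 CPM, 4 of 4 libraries), more of the nuclear noncoding RNA Malat1 (107080 against 52046 CPM, 4 of 4) and had a higher median mitochondrial share (5.82% against 3.90%, 4 of 4), and the part of depth in these levels was not tested. After thinning, the 188 cells with a Rorb UMI held more Brinp3 than the 365 without (266 against 129 CPM, higher in 4 of 4 libraries) and less Tnnc1 (189 against 307 CPM, lower in 4 of 4). The 94 cells with a Calb1 UMI held more Rasgrf2 than the 459 without (95.7 against 46.8 CPM, 4 of 4 libraries) and more Lamp5 (250.0 against 108 CPM, 3 of 4). Their Cartpt level was 213 against 28.3 CPM (higher in 4 of 4), from 80.0 to 391 CPM by library, a gene whose UMIs lay in few cells (1 cell of Setd1a+/- replicate 2 held 49 of its 94). The 85 cells with a Cux2 UMI held more Calb1 (182 against 92.9 CPM, 4 of 4) and less Brinp3 (76.5 against 193 CPM, lower in 4 of 4), whereas Rorb was at 294 against 286 CPM and higher in 2 of 4. These splits were made from the same counts and are given with no test.

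SL-Cux2 cells made up 16.1% (95% Wilson interval 12.86 to 19.97), 24.1% (21.8 to 26.7), 20.2% (17.4 to 23.4) and 27.5% (23.7 to 31.6) of the excitatory neurons of the 4 libraries, where intervals cover counting error only. The share was higher in replicate 2 of each genotype, and the genotypes overlapped. The mean difference was 3.74 percentage points (Setd1a+/- minus WT, two-sided exact permutation p = 0.667), and within replicates it was 4.13 and 3.34 points. As a share of all annotated PFC cells the values were 2.52%, 10.7%, 6.40% and 8.82% (exact permutation p = 1.0). The difference in share of excitatory neurons was −0.28 points without WT replicate 1, 7.76 points without WT replicate 2, 7.36 points without Setd1a+/- replicate 1 and 0.11 points without Setd1a+/- replicate 2.

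**Figure D3:**
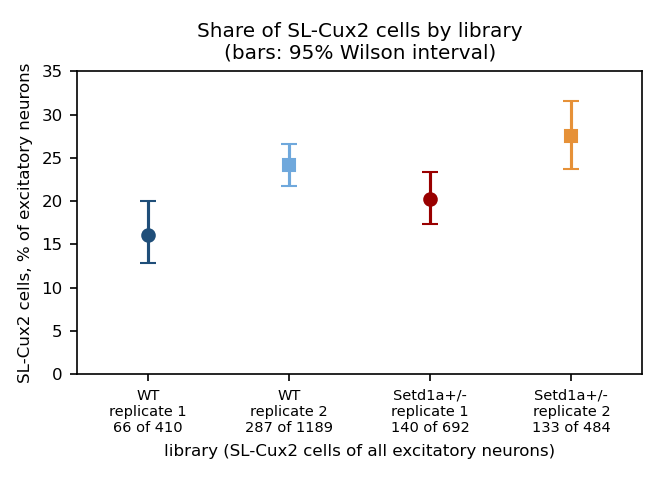
SL-Cux2 cells as a percentage of the annotated excitatory neurons of each library (vertical axis), with bars for the 95% Wilson interval. The 2 replicate 2 libraries (24.1% and 27.5%) lie above the 2 replicate 1 libraries (16.1% and 20.2%), and the genotypes overlap.

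The effect of losing 1 Setd1a copy on SL-Cux2 cells was tested on UMIs summed per library, 2 WT against 2 Setd1a+/- libraries. Setd1a itself (chr7:127776670-127800122, plus strand) measured 11.7, 12.8, 6.13 and 12.4 CPM, from 7, 20, 6 and 10 UMIs. The lowest value was in a Setd1a+/- library and the other Setd1a+/- library lay between the WT values, so the genotypes overlapped (log2 fold change −0.44, SE 0.56, edgeR FDR = 1.00). These few counts, taken without regard to the edited site, do not check the labels. Without Setd1a+/- replicate 1 the log2 fold change was 0.044.

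No gene passed the cutoffs of FDR under 0.05 and fold change above 1.5 in edgeR (0 of 8403 genes, 0.0% in each direction), and DESeq2 called 0 too. At an unadjusted p under 0.05, 24 genes were higher (0.286%) and 49 lower (0.583%) in edgeR, and 3 higher and 5 lower in DESeq2. Both Setd1a+/- libraries lay above both WT libraries for 999 genes (11.9%) and below them for 1064 genes (12.7%). The median log2 fold change over all genes was −0.0039. Once replicates were blocked, 3 genes passed in edgeR, 1 higher (0.0119%) and 2 lower (0.0238%): Cartpt, the ribosomal RNA-rich locus Gm42418 and mt-Atp8, a mitochondrially encoded ATP synthase subunit. With 4 libraries, the blocked fit keeps almost nothing of a gene's own spread and relies on the spread fitted over all genes. The FDR values given with the block therefore do not measure how far the libraries of that gene vary. Without Setd1a+/- replicate 2, 191 genes were called, 12 higher and 179 lower, led by Mt3, Eno1, Gapdh and Syp, which were among the 24 genes higher in replicate 2 of both genotypes. The lone Setd1a+/- sample is then assumed to vary like the WT pair. Without Setd1a+/- replicate 1 the only call was Cartpt.

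Cartpt (chr13:99898489-99901091, minus strand) had the lowest p of all genes. It measured 18.4, 16.7, 62.3 and 116 CPM, from 11, 26, 61 and 94 UMIs, and both Setd1a+/- libraries lay above both WT libraries. The log2 fold change was 2.37 (SE 0.41, unadjusted p = 0.000273), with an edgeR FDR of 1.00 without the block and 2.78e-09 with it (2.44, SE 0.33). The value with the block has the limit given above. Cells with a Cartpt UMI numbered 7, 12, 12 and 13, or 10.6%, 4.18%, 8.57% and 9.77% of SL-Cux2 cells, which overlapped between genotypes in libraries of unequal depth. With cells thinned to 2000 UMIs the shares were 4.76%, 2.5%, 7.19% and 9.01%, and both Setd1a+/- libraries lay above both WT libraries. Pooled, the thinned share was 5.24% in SL-Cux2, 10.5% in inhibitory neurons and 0.107% in oligodendrocytes (7.03%, 16.4% and 0.059% without thinning). The UMIs lay in few cells: the highest cell of each library held 3, 5, 16 and 49 UMIs, and the 3 highest held 7, 12, 36 and 68 in all. Without the highest cell of each library the levels were 13.6, 13.6, 46.2 and 56.2 CPM, and the log2 ratio of the genotype means was 1.91 instead of 2.35. Cartpt was not confined to SL-Cux2, since DL-Etv1 measured 14.8, 2.86, 3.31 and 66.6 CPM, and the genotype effect differed by 0.29 (SE 0.49, edgeR FDR = 1.0) from that in the other excitatory neurons.

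Gm42418 measured 226, 48.1, 17.4 and 35.9 CPM (log2 fold change −2.25, SE 0.65, edgeR FDR = 1.00, and 6.06e-08 with the block), and WT replicate 1 held most of the difference. The gene overlaps ribosomal RNA sequence, so its counts are uncertain. mt-Atp8 measured 152, 50.01, 20.4 and 47.0 CPM (−1.49, SE 0.55, edgeR FDR = 1.00, and 0.00846 with the block), and again WT replicate 1 stood apart while WT replicate 2 and Setd1a+/- replicate 2 were close. Both followed the same order in the other excitatory neurons, with Gm42418 at 152, 61.9, 17.3 and 35.4 CPM and mt-Atp8 at 183, 55.9, 18.9 and 47.9 CPM.

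The other genes with the lowest p values and no overlap between genotypes had smaller differences than Cartpt and Gm42418, none past an edgeR FDR of 0.05. Higher in both Setd1a+/- libraries were Ndn (necdin, an imprinted gene of postmitotic neurons) at 152, 165, 237 and 308 CPM, a log2 fold change of 0.80, and Ddit4l at 53.5, 55.1, 89.9 and 86.6 CPM, 0.70. Ndn was also higher in both Setd1a+/- libraries of the other excitatory neurons, at 282, 231, 354 and 317 CPM. Ddah1, an enzyme that clears inhibitors of nitric oxide synthase, measured 5.02, 5.77, 14.3 and 19.8 CPM (1.59, SE 0.54). Lower in both were Cdh8, a cadherin, at 90.3, 66.7, 40.9 and 33.4 CPM, a log2 fold change of −1.04, and Etv1, the ETS factor of deep-layer neurons, at 61.9, 75.7, 38.8 and 28.4 CPM, also −1.04. These 5 genes were picked for a low p and no overlap between genotypes, so the gap is no separate support. The test over all genes did not pass. mt-Nd4l, a mitochondrial complex I subunit, measured 135, 116, 52.1 and 69.3 CPM (−1.02) in SL-Cux2 and 132, 116, 46.5 and 112 CPM in the other excitatory neurons, again lower in both Setd1a+/- libraries. Map2k7, a kinase of the JNK pathway, measured 41.8, 34.0, 14.3 and 18.6 CPM (−1.17), and Cacnb2, a calcium channel beta subunit, 43.5, 23.7, 14.3 and 11.1 CPM (−1.30). The remaining genes of this kind, 6030458C11Rik, Lysmd3, A830029E22Rik and Fam19a2 among the higher and Ccdc82 and Zfp62 among the lower, had log2 fold changes from 0.86 to 1.42 and from −0.97 to −1.46.

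**Figure D4:**
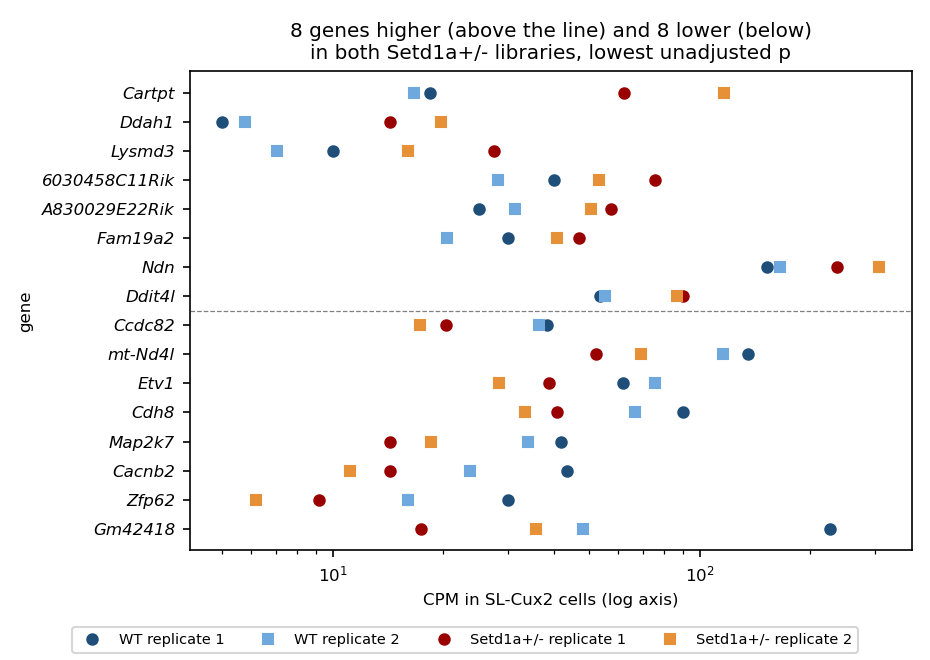
Levels in SL-Cux2 cells (CPM, log axis) of the 8 genes with the lowest unadjusted p that were higher (above the dashed line) and the 8 that were lower (below it) in both Setd1a+/- libraries, with 1 point per library. None passed an edgeR FDR of 0.05 without the replicate block, and as a ratio, the distance on this axis, Cartpt has the widest gap between the nearest libraries of the genotypes, from 18.4 to 62.3 CPM.

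Gene lists were described by their members' counts beside the background of 11.9% of all genes above and 12.7% below without overlap. Of 17 superficial-layer genes tested, 4 lay above and 3 below. Cux2 measured 114, 66.0, 150 and 122 CPM (log2 fold change 0.66, SE 0.29, unadjusted p = 0.050, edgeR FDR = 1.00), and Lhx2, a LIM homeodomain factor, 18.4, 16.0, 11.2 and 2.47 CPM (−1.24, SE 0.61). Of 13 deep-layer genes, 0 lay above and 3 below. Of 15 genes of glutamatergic identity, 0 lay above and 5 below, with a median log2 fold change of −0.17, and Neurod1 had the lowest value at 110, 78.9, 74.6 and 73.0 CPM (−0.32, SE 0.27).

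For receptors and channels, 0 of 16 ionotropic glutamate receptor genes lay above and 8 below, with a median log2 fold change of −0.11. Grin1, the obligatory NMDA receptor subunit, measured 100.3, 106, 33.7 and 89.1 CPM (−0.73, SE 0.43), and the low value of Setd1a+/- replicate 1 set most of this difference. None of 6 metabotropic glutamate receptor genes lay on either side, 0 of 13 GABA receptor genes lay above and 4 below, and Gabrb2, a GABA-A receptor subunit, measured 18.4, 14.7, 5.11 and 11.1 CPM (−1.004, SE 0.55). Of 36 potassium channel genes 3 lay above and 6 below, and of 21 sodium and calcium channel genes 1 lay above and 4 below. No member of these lists passed the test.

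For synapses, 2 of 42 vesicle and release genes lay above and 10 below (median −0.19). The vesicle gene Synpr measured 582, 683, 988 and 809 CPM (0.51, SE 0.26), and Dnm1, the dynamin of vesicle recycling, 179, 226, 83.8 and 176 CPM (−0.63, SE 0.38). Of 48 synapse assembly genes 1 lay above and 9 below (median −0.06), and Dlg1, a scaffold of glutamate receptors, measured 102, 75.01, 32.7 and 64.3 CPM (−0.83, SE 0.37). Setd1a+/- replicate 1 was the lowest library for both Dnm1 and Dlg1, and Setd1a+/- replicate 2 was close to the lower WT value for Dnm1 only. Of 19 ion pumps and exchangers, 1 lay above, Slc12a2, a chloride importer, at 13.4, 18.0, 24.5 and 19.8 CPM (0.45, SE 0.41), and 7 below, among them Atp2b3, a calcium pump, at 26.7, 11.5, 9.20 and 4.95 CPM (−1.26, SE 0.59). Of 29 axon guidance genes 3 lay above and 5 below, with Efna5, an ephrin, at 46.8, 46.2, 101 and 50.7 CPM (0.71, SE 0.35) and Sema3a, a semaphorin, at 26.7, 22.4, 16.3 and 12.4 CPM (−0.73, SE 0.40).

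Of 14 immediate early genes, which respond to neuronal activity and to dissociation, 4 lay above and 0 below (median 0.24), and Ier2 measured 23.4, 23.7, 64.4 and 26.0 CPM (0.94, SE 0.42), with Setd1a+/- replicate 1 apart from the other 3 libraries. The summed level of the 21 listed genes was 1274, 1193, 1565 and 1325 CPM, above both WT libraries in both Setd1a+/- libraries. Of 11 heat shock genes 2 lay above and 1 below, and of 17 neuropeptide and modulator genes 2 lay above and 1 below, with Sstr2 at 8.36, 1.92, 11.2 and 14.8 CPM (1.66, SE 0.71, unadjusted p = 0.0448). Cartpt, which also lay above, was not a member of the neuropeptide list. Of 19 genes of H3K4 methylation, the pathway of Setd1a, 1 lay above, Dpy30, a core subunit of the methyltransferase complexes, at 112, 124, 170 and 153 CPM (0.46, SE 0.25), and 2 below, among them Hcfc1, a cofactor of SETD1 complexes, at 35.1, 31.4, 16.3 and 28.4 CPM (−0.56, SE 0.40). Of 10 genes linked to schizophrenia by rare coding variants 0 lay above and 2 below, the glutamate receptor genes Grin2a at 249, 230, 229 and 207 CPM (−0.12, SE 0.24) and Gria3 at 171, 186, 147 and 165 CPM (−0.18, SE 0.26). Of 13 tested genes that the study had singled out, partly on these samples, so that they are no independent evidence, 1 lay above and 2 below, among them Taok2, a kinase of dendrite growth, at 18.4, 15.4, 9.20 and 9.90 CPM (−0.79, SE 0.47). Of the 13 mitochondrially encoded genes 3 lay above and 4 below.

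Of the marker lists of other cell types, the summed level overlapped between genotypes for all but astrocyte markers. Summed over 10 interneuron markers, 2 of them at 0 in all libraries, the level was 11.7, 39.8, 69.5 and 24.7 CPM. Summed over 9 oligodendrocyte markers, none at 0, it was 119, 127, 176 and 100.2 CPM, and over 9 astrocyte markers, none at 0, 1013, 994, 854 and 914 CPM. The 8 progenitor markers, 3 of them at 0, summed to 1.67, 3.85, 13.3 and 3.71 CPM, the 9 microglia markers to 35.1, 57.1, 35.8 and 44.5 CPM, and the 9 endothelial markers to 154, 483, 127 and 505 CPM. The astrocyte sum was lower in both Setd1a+/- libraries than in both WT libraries, while its defining gene Aqp4 was at or near 0. Most of that sum came from the listed members Slc1a2, at 513, 537, 451 and 392 CPM, and Sparcl1, at 288, 207, 263 and 273 CPM. The interneuron, oligodendrocyte and progenitor sums were highest in Setd1a+/- replicate 1, and the endothelial sum was high in both replicate 2 libraries. Most of the endothelial sum was Bsg, at 124, 434, 72.5 and 476 CPM. The part of the astrocyte, microglia, progenitor and endothelial transcripts in the genotype comparison was not tested. Without the 4, 7, 15 and 2 cells that held more than 2 UMIs of defining interneuron and oligodendrocyte markers, edgeR called 0 genes.

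Whether the genotype effect in SL-Cux2 differed from that in other neurons was tested as an interaction with the library as a block. Like the fit with replicates blocked, this fit keeps little of a gene's own spread and relies mostly on the spread fitted over all genes. The edgeR FDR values of the interaction, here and below, therefore do not measure how far the libraries of a gene vary. Against all other excitatory neurons, 1 of 11083 genes passed (0.00902% more positive in SL-Cux2, 0.0% more negative), Gad1, the GABA-synthesizing enzyme of inhibitory neurons (log2 difference 3.92, SE 0.82, edgeR FDR = 0.0422). SL-Cux2 cells held 0, 5, 22 and 1 Gad1 UMIs, of which 19 of the 22 came from 1 cell. Without the cells holding markers of other types, 0 genes passed and Gad1 was too low to be tested. The next were Etv1 (−1.16, SE 0.26) and Ddah1 (2.23, SE 0.50), each with an edgeR FDR of 0.0624. Leaving out 1 library gave log2 differences from −1.47 to −0.61 (without WT replicate 2) for Etv1 and from 1.67 to 2.90 for Ddah1. Etv1 was lower in both Setd1a+/- libraries of SL-Cux2, whereas the other excitatory neurons measured 252, 171, 241 and 180 CPM and overlapped. Ddah1 was higher in both Setd1a+/- libraries of SL-Cux2, from 3, 9, 14 and 16 UMIs, and the other neurons measured 34.0, 48.2, 34.9 and 20.99 CPM. In every library most Ddah1 UMIs of the other neurons lay in DL-Foxp2, where the level was 82.7, 104, 84.99 and 82.2 CPM. DL-Foxp2 held 199 of 271 in WT replicate 2 and 32 of 57 in Setd1a+/- replicate 2. Against DL-Foxp2 alone the Ddah1 difference was 1.82 (SE 0.52, edgeR FDR = 0.394). The part of the subtype mix in the Ddah1 difference was not tested.

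Against DL-Foxp2, 5 of 9467 genes passed, 1 more positive (0.0106%) and 4 more negative (0.0423%) in SL-Cux2. Pcp4, a calmodulin-binding protein, measured 1262, 2375, 1521 and 1225 CPM in SL-Cux2 and 5642, 7684, 8469 and 7722 CPM in DL-Foxp2 (log2 difference −0.61, SE 0.13, edgeR FDR = 0.0196). WT replicate 2 was the highest SL-Cux2 library, and without it the Pcp4 difference was −0.39. Leaving out WT replicate 1, Setd1a+/- replicate 1 or Setd1a+/- replicate 2 gave −0.87, −0.73 and −0.56. Such a fit has 1 library in a genotype and cannot show the spread there, so only differences are given. Gnb1, a G protein beta subunit, measured 639, 547, 951 and 743 CPM in SL-Cux2, higher in both Setd1a+/- libraries, and 569, 645, 652 and 444 CPM in DL-Foxp2 (0.72, SE 0.17, edgeR FDR = 0.0440). Leaving out 1 library gave Gnb1 differences from 0.48 (without WT replicate 2) to 0.87 (without WT replicate 1). The other 3 were hemoglobin genes, Hbb-bs (−3.84), Hba-a1 (−5.02) and Hba-a2 (−4.55). Hbb-bs measured 63.5, 13.5, 34.7 and 18.6 CPM in SL-Cux2 and 46.7, 13.6, 639 and 20.5 CPM in DL-Foxp2. A single library, Setd1a+/- replicate 1 of DL-Foxp2, thus set the difference, and without that library the value was −0.40.

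Against DL-Etv1, 0 of 9207 genes passed in edgeR (0.0% in each direction), with 150 more positive and 187 more negative at an unadjusted p under 0.05, and DESeq2 called 0. Without WT replicate 1 the log2 differences were −0.59 for Pcp4, 0.73 for Gnb1, −1.18 for Etv1 and 2.71 for Ddah1. Without WT replicate 2 they were −0.55, 0.34, −0.83 and 1.13 for the same genes. A fit with 1 WT library cannot show the spread among WT libraries, so only the differences are given here. With all libraries their differences were −0.59, 0.54, −1.08 and 2.41, with edgeR FDR values of 0.418, 1.00, 0.418 and 0.418.

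**Figure D5:**
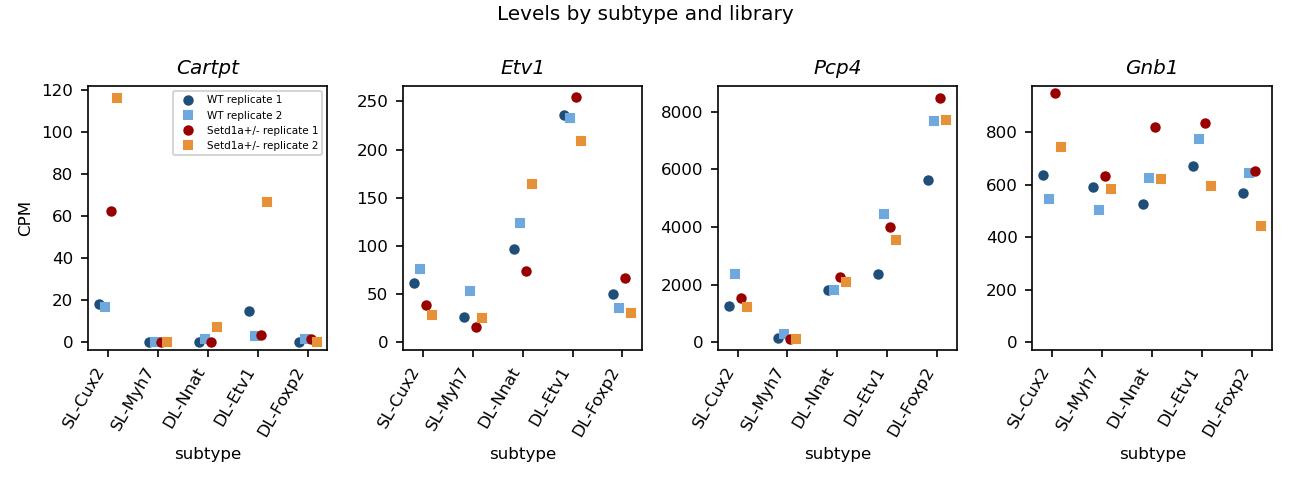
Levels (CPM) of Cartpt, Etv1, Pcp4 and Gnb1 in 5 excitatory subtypes (horizontal axis), with 1 point per library. Cartpt is high in both Setd1a+/- libraries of SL-Cux2 (62.3 and 116 CPM) and in Setd1a+/- replicate 2 of DL-Etv1 (66.6 CPM), and Pcp4 is highest in DL-Foxp2 in every library.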

How the data were processed

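Per the labels and the study's methods, dissociated PFC cells were captured on the 10x Chromium platform, and the submitters' processing notes name Cell Ranger 3.0.2, Seurat 3.2.0 and genome build mm10. The authors deposited whole-number UMI counts per gene and barcode for each library, not normalized, and tables (other values) that give each retained cell its library and subtype name. Cells were kept as the authors annotated them, with no doublet call added, and counts of SL-Cux2 cells were summed per library. The study names 1 WT and 1 mutant sample in each biological replicate, and deviations of same-numbered libraries correlated at 0.488 over 8403 genes, so blocked values are given where they change a call. Genotypes were compared with edgeR 4.0.16 in R 4.3.3 (TMM, quasi-likelihood test, genes kept by filterByExpr at a count of 10, and Benjamini-Hochberg FDR over all genes tested), subtypes by an interaction term with library as a block, and DESeq2 1.42.0 was the alternative tool. Exact permutation tests used scipy 1.17.1. The members and lists were chosen with earlier results of these data known. Genes named were the 20 leading high and 20 leading low genes by their smallest ratio over libraries and the layer lists, the 8 genes with the lowest p in each direction without overlap between genotypes, genes called by an interaction or nearest to it, Setd1a, and from each list the members with the highest level and the largest and smallest fold change. Those with the highest level are named only where a result turns on them. Other high and low genes of lists, and Mt3, Gapdh, Tnnt2, Tshz1, Scn7a, Rgs4 and the genes within subsets of cells, were chosen after their values were seen. The marker-cell, 4000 UMI and highest-cell alternatives were also added after the data were seen, the first of them for the interaction only. The striatum libraries were not used here, and 0 columns belonged to other series. Some genes of the lists are not reported here.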

Additional observations from a re-analysis of the deposited data

Results flagged for a closer look

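The interaction term passed an edgeR FDR of 0.05 for 6 genes in 2 comparisons, with the limit of that fit given above. These were 1 of 11083 genes (0.00902%) against all other excitatory neurons, and 5 of 9467 against DL-Foxp2 (0.0106% more positive and 0.0423% more negative). Against all other excitatory neurons the log2 difference was 3.92 for Gad1, where 19 of the 22 UMIs of Setd1a+/- replicate 1 lay in 1 SL-Cux2 cell. Against DL-Foxp2 it was −3.84 for Hbb-bs, −5.02 for Hba-a1 and −4.55 for Hba-a2, and in Setd1a+/- replicate 1 DL-Foxp2 cells held 805, 107 and 136 UMIs of these genes against 34, 0 and 10 in SL-Cux2 cells. The difference from DL-Foxp2 was −0.61 for Pcp4 and 0.72 for Gnb1, and without WT replicate 2 these values were −0.39 and 0.48. DESeq2 called none of the 6.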

How the results depend on the processing

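The genotype comparison called 0 genes with DESeq2, with RLE size factors, after thinning to 2000 UMIs, in cells of at least 4000 UMIs, without mitochondrial and ribosomal protein genes and without cells holding markers of other types, 3 genes with no filter on low counts, 3 with the replicate block, and 0 to 191 when 1 library was left out. The block changed no other genotype call. Against all other excitatory neurons the interaction called 0 genes with DESeq2, 0 without cells holding markers of other types and 0 to 6 when 1 library was left out, against DL-Foxp2 0 with DESeq2 and 3 to 8, and against DL-Etv1 0 with DESeq2 and 0 to 6. At a minimum of 50 CPM, with fewer genes tested, 29 genes were high and 41 low in SL-Cux2. At the main minimum of 20 CPM, 42 to 63 genes were high when 1 library was left out. With other subtypes weighted equally, 42 genes were high, 33 of them among the 38, and 72 were low, 58 of them among the 69. Leaving out 1 library gave log2 fold changes of −1.06 to 0.044 for Setd1a and −0.84 to 0.21 for Pcp4 (0.21 without WT replicate 2), share differences of −0.28 to 7.76 percentage points, differences in median UMIs of −4032.8 to 570.75 and in mitochondrial share of −0.072 to 0.85 points, and the causes were not tested. Of 96 named genes, the log2 fold change reversed in 28 without Setd1a+/- replicate 1, 23 without WT replicate 2, 12 without WT replicate 1 and 4 without Setd1a+/- replicate 2. With 66 cells in the smallest library and 2 libraries per genotype, genes at few UMIs could not be resolved.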
